A study of Homo sapiens with 12 samples.

Results

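RPF-1 is a POU domain transcription factor first described in retina. Here it was switched on in HEK293, a line derived from human embryonic kidney, through 48 h of growth in medium without tetracycline (Tet). The RPF1 Tet- group is HEK293 carrying an RPF-1 cDNA in the vector pTRE2puro, grown without Tet so that the construct was on, and the RPF1 Tet+ group is the same line grown with Tet so that it was off. Each had 3 arrays, 6 of the 12 in the series. The other 6 come from HEK293 with a Mock construct, again 3 without Tet (Mock Tet-) and 3 with Tet (Mock Tet+). The 6 RPF1 arrays were chosen by their labels alone, and all were used. Whether the RPF1 line is 1 clone is not stated, and the labels do not say whether replicates were separate cultures, so the p-values reflect the spread among these arrays only. The level of the transfected RPF-1 itself is not reported here.

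POU domain factors bind DNA through a bipartite domain, a POU-specific part joined to a homeodomain, and the classical site of the family is an octamer motif. They are best known for fixing cell identity in pituitary, sensory neurons, lymphocytes and early embryo. A factor of this kind can raise some genes and lower others, directly or through the genes it acts on first. The arrays measured RNA levels and cannot tell these apart, nor fewer cells that express a gene from less RNA in each cell.

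On each array between 13568 and 14493 probes were detected, arrays of 1 group correlated at 0.989 to 0.9957 across probes, and precision is limited by how few arrays there were. Levels are log2 normalized signals, and a log2 change is the mean of RPF1 Tet- minus the mean of RPF1 Tet+. Of the 3 chips that carried the arrays, the second held 8, among them all 3 RPF1 Tet+ arrays but only 1 of RPF1 Tet-, while RPF1 Tet- 2 and 3 sat on the third. Most of the contrast thus runs across chips. Beside each gene group with calls stand the numbers of its members called in further fits. The chip-blocked fit has chip as a fixed block, and another fit holds the 8 arrays within the second chip. These counts may include members that were not called without regard to chip. RPF1 Tet- 1 alone stands for its group in both, on the assumption that its spread equals that of the remaining arrays. A gene is named without remark below only if its call was kept in both and whenever any 1 array was left out. Except for the leading genes that come first, named genes were also picked for no overlap between RPF1 Tet- and RPF1 Tet+ arrays. That their groups lie apart is thus a description and no support.

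To show the scale of the induction, 6 of its leading genes are given first. They were picked from earlier results of this contrast, so their separation is a description and no check of the labels. CITED1, a coregulator of the developing kidney, had 11.86, 11.55 and 11.99 in RPF1 Tet- cells, against 8.26, 8.20 and 8.03 in RPF1 Tet+ cells. HES5, NPPB and FOXA2 were also higher on every RPF1 Tet- array than on any RPF1 Tet+ array, with log2 changes of 4.22, 4.19 and 2.77. ANXA1 and TFPI were lower on every RPF1 Tet- array, with changes of -3.29 and -2.87. Of 8 genes known in HEK293 cells 7 could be tested, of which 3 rose, 2 fell and 2 were not called (1 higher and 2 lower in the chip-blocked fit, 1 higher and 2 lower within the second chip and 3 without RPF1 Tet+ 1, RPF1 Tet+ 3, RPF1 Tet- 1 or RPF1 Tet- 3). The log2 of their summed signal was 16.59 to 16.76 in RPF1 Tet- cells and 16.68 to 16.74 in RPF1 Tet+ cells, and the renal factor PAX2 was detected on 0 of 12 arrays.

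Limma called 1776 of 13228 features (13.4%) between RPF1 Tet- and RPF1 Tet+ at an adjusted p under 0.05, 885 higher (6.69%) and 891 lower (6.74%). Most changes were small: the median absolute log2 change was 0.54 among called features and 0.16 among all, and 252 called features, 152 higher and 100 lower, changed by at least 1. The chip-blocked fit called 419 features (3.17%), 200 higher (1.51%) and 219 lower (1.66%), and the second chip by itself gave 363 (2.74%), 178 higher (1.35%) and 185 lower (1.4%). Every one of the 1776 kept its sign in both, and 414 and 354 kept their call with that sign. For the 1766 of them without overlap between the groups the sign was fixed in advance. Among all features, called or not, 3883 of 13228 (29.4%) had no overlap. Both fits set RPF1 Tet- 1 alone against the RPF1 Tet+ arrays, so the kept sign is no check. The count of calls was 1132 without RPF1 Tet+ 1, 1156 without RPF1 Tet- 3 and 971 when the fit held the 6 RPF1 arrays only. Calls were spread over the range of levels. By quartile of mean level from dimmest to brightest, 10.8%, 16.7%, 15.1% and 11.1% of features were called, and 1580 of the called features were detected on all 6 RPF1 arrays. Another 70 called higher were detected on no RPF1 Tet+ array, and 23 called lower on no RPF1 Tet- array. For a gene of that kind a bound is given as "at least N-fold", the bright group's mean over a floor, which on each dim array is the gene's own value or, if that is lower, the dimmest detected probe.

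To see where these changes fell, 74 lists of genes by function were counted, leaving out histones and Notch genes. Of 3604 distinct list genes tested, 238 rose and 258 fell, or 13.8%, close to the share of all features. At least 20% of the members were called in 15 lists, with few or no calls in others. The 8 lists with at least 25% were intermediate filaments, imprinted genes, T-box and GATA type factors, retinoid genes, one-carbon enzymes, immunoglobulin and leucine-rich adhesion proteins, secretory granule proteins and receptor tyrosine kinases with their ligands. The 7 with the smallest shares covered the proteasome, the nuclear pore, ribosomal proteins and ribosome biogenesis, glycolysis, respiratory complexes III to V, and polycomb and DNA methylation genes. List medians ran from -0.14 to 0.16 on the log2 scale, against -0.01 over all features. The lists overlap, and no test of a list as a whole was made.

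**Figure D1:**
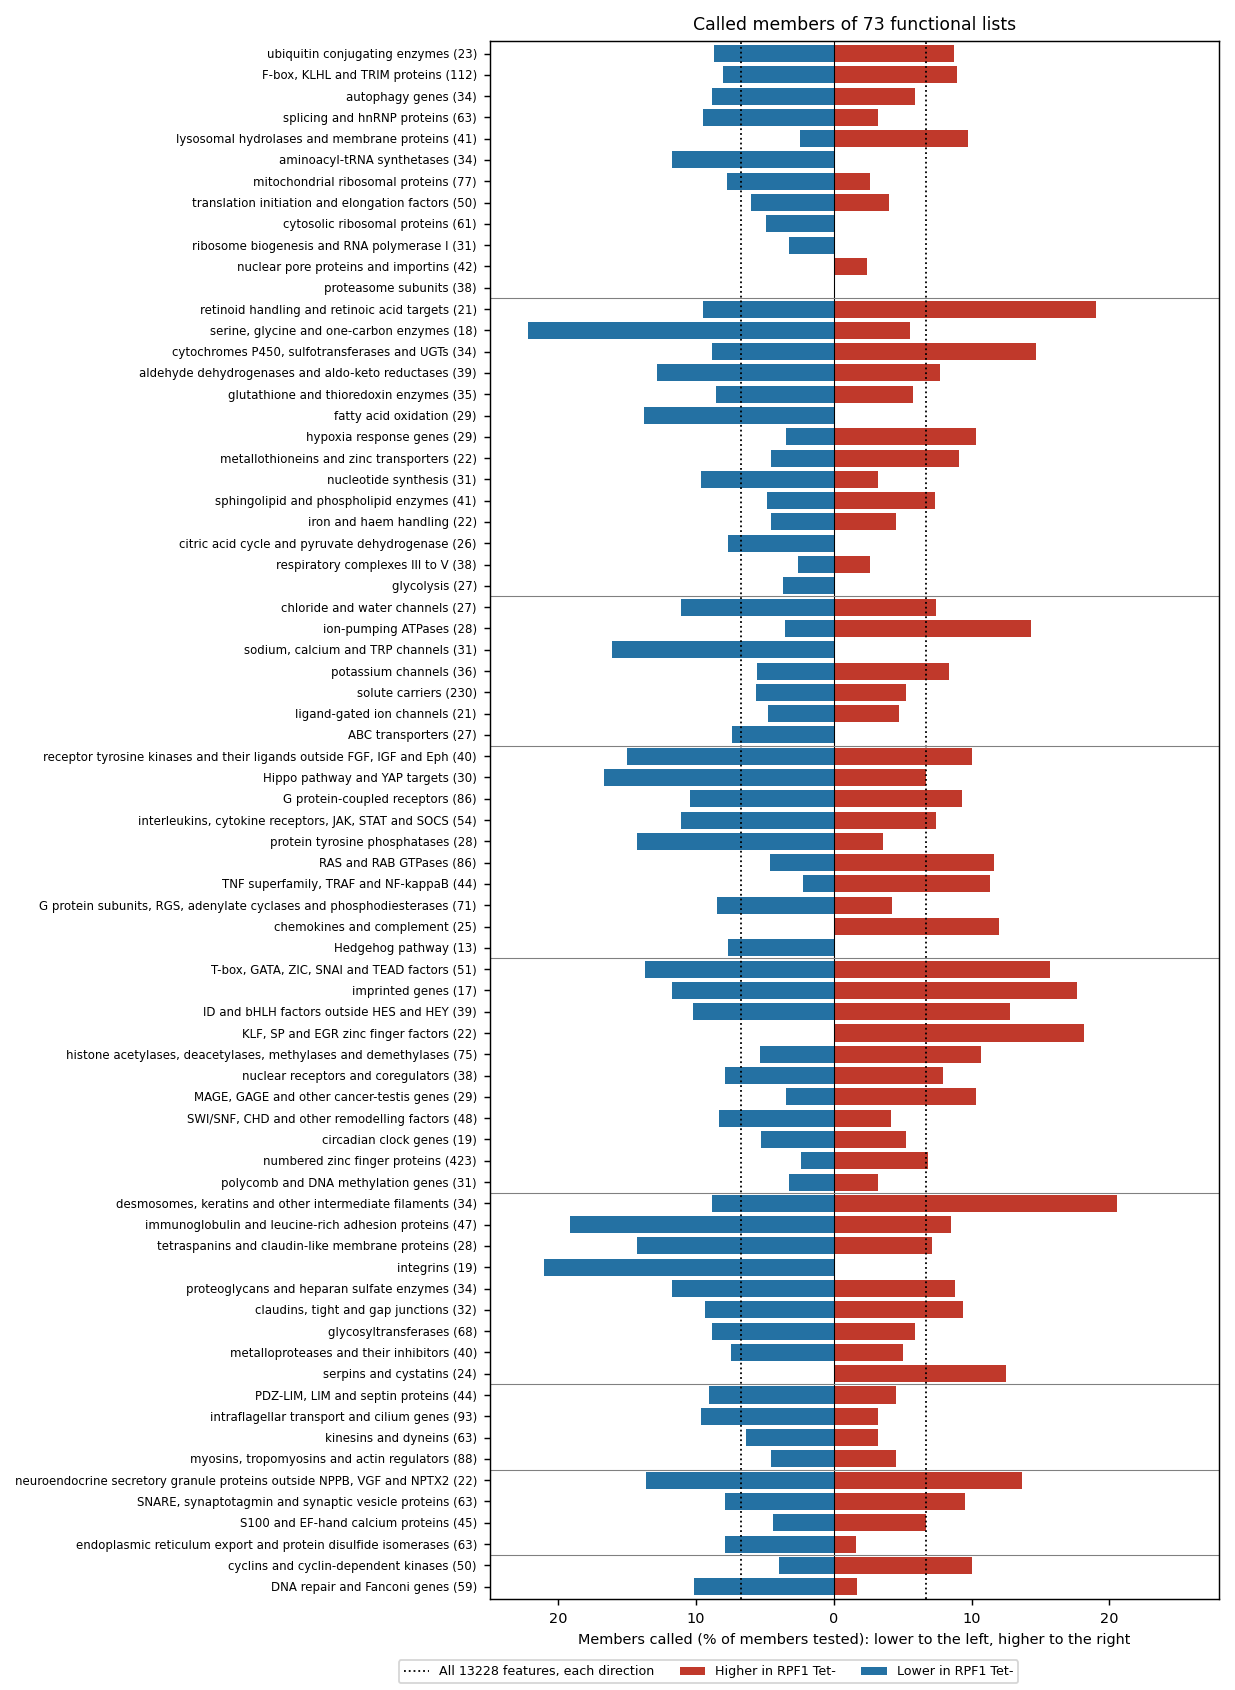
Share of the tested members of 73 functional lists that were called higher (right, red) or lower (left, blue) in RPF1 Tet- than in RPF1 Tet+, in percent, with the number of members tested in brackets. Dotted lines mark the shares over all 13228 features, 6.69% higher and 6.74% lower. Integrins show blue bars only, intermediate filaments and retinoid genes reach furthest to the right, and proteasome subunits have no bar.

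The octamer, ATGCAAAT, was looked for on both strands of the 300 bases around the start of each gene, 250 before and 50 after, in RefSeq promoters of GRCh38.p14 (9747 of 11824 tested genes matched). It stood in 1.37% of all these promoters, in 20 of 620 promoters of genes that rose (3.23%) and in 7 of 636 of genes that fell (1.10%). Histone genes made up 13 of the 20. Without histones the share among genes that rose was 1.18% (7 of 594), against 1.20% of all promoters without histones, so outside the histones the octamer was about as frequent in genes that rose as elsewhere. For comparison, the cAMP response element TGACGTCA stood in 3.55% of promoters of genes that rose, 2.36% of those of genes that fell and 3.19% of all. The AP-1 site TGACTCA stood in 4.52% (28 promoters), 2.04% (13 promoters) and 3.12% in the same order. These matches are descriptions of letters in a window and not evidence of binding.

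Among the named genes outside the histones, 5 promoters that held the octamer are given as examples. This is not a full count, and promoters of other named genes may hold it. The 5 are printed to show its place in genes that moved. Each runs 5′ to 3′ on the gene's own strand with the octamer, or its reverse complement ATTTGCAT, in capitals. IL4R, ANO7 and ST6GAL1 fell, and SIRT4 and HPCAL4 rose. The octamer begins 115 bases before the start in IL4R (chr16:27313724-27314023, plus strand), 249 before it in ANO7 (chr2:241188427-241188726, plus strand), 45 before it in ST6GAL1 (chr3:186930276-186930575, plus strand), 64 before it in SIRT4 (chr12:120291939-120292238, plus strand) and 34 before it in HPCAL4 (chr1:39691384-39691683, minus strand). In ANO7 and ST6GAL1 it lies on the strand opposite to the gene.
IL4R: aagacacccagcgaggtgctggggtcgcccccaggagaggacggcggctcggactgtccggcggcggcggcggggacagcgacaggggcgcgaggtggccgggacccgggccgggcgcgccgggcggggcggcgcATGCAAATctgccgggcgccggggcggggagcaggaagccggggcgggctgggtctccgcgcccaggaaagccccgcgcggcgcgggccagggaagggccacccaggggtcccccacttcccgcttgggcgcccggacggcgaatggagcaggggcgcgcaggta
ANO7: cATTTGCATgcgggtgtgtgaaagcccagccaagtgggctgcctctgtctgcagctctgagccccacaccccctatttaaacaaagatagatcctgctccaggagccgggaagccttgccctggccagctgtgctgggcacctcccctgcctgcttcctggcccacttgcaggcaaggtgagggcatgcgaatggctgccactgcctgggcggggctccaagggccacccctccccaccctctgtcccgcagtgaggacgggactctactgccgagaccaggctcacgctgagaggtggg
ST6GAL1: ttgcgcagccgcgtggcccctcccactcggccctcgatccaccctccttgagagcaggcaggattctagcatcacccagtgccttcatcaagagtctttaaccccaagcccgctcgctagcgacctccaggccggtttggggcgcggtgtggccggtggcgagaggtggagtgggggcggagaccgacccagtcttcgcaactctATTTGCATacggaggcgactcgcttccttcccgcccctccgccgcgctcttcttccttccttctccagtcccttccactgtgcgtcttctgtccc
SIRT4: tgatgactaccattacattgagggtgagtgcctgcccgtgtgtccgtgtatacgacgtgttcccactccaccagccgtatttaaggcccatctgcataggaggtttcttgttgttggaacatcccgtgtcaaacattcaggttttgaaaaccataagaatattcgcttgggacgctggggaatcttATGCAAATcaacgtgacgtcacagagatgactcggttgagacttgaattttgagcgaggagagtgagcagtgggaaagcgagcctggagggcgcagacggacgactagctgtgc
HPCAL4: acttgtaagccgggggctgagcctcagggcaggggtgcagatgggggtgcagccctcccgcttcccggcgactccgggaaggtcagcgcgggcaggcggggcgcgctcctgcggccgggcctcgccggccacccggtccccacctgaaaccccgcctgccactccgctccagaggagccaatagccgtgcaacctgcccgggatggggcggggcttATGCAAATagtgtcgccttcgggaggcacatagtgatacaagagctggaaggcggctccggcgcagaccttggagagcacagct
The octamer is thus found both in genes that rose and in genes that fell. IL4R, a receptor subunit for interleukin 4, changed by -0.93, and ST6GAL1, a sialyltransferase, by -0.66; neither call was kept within the second chip (adjusted p = 0.0577 and 0.0501). ANO7, an anoctamin membrane protein, changed by -0.73, SIRT4, a mitochondrial sirtuin, by 0.65 and HPCAL4, a neuronal calcium sensor, by 0.86. These 3 calls were lost in the chip-blocked fit (adjusted p = 0.184, 0.0985 and 0.208) and within the second chip (adjusted p = 0.216, 0.112 and 0.153). That of HPCAL4 was also lost without RPF1 Tet+ 1 (adjusted p = 0.0666) or RPF1 Tet- 3 (adjusted p = 0.0536).

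Growth factors that act through receptor tyrosine kinases were among the groups with the most calls. Several ligands fell while a coreceptor of the GDNF family rose. Of 40 receptor tyrosine kinases and ligands tested (those of FGF, IGF and Eph type left out), 4 rose, 6 fell and 30 were not called (1 higher and 6 lower in the chip-blocked fit and 1 higher and 5 lower within the second chip). GFRA2, the coreceptor for neurturin that signals with RET, had levels of 9.23, 9.42 and 9.48 in RPF1 Tet- cells, against 7.15, 6.86 and 7.50 in RPF1 Tet+ cells. It thus rose (log2 change 2.20, SE 0.14, limma adjusted p = 2.09e-06). BDNF, the neurotrophin ligand of TRKB, had 8.87, 8.61 and 8.78 in RPF1 Tet- cells, against 10.60, 10.70 and 10.33 in RPF1 Tet+ cells. The groups were far apart (log2 change -1.79, SE 0.12, limma adjusted p = 3.82e-06), though 3 other probes of the gene changed less (-0.20, -0.38 and -0.74).

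PDGFD, a ligand of the PDGF beta receptor, was at 7.15, 7.30 and 6.91 in RPF1 Tet- cells, against 8.78, 8.56 and 8.97 in RPF1 Tet+ cells. PDGFD thus fell (log2 change -1.65, SE 0.12, limma adjusted p = 8.68e-06). NRG1 and NRG4, EGF-like ligands of the ERBB receptors, moved the same way. NRG1 had 8.05, 7.98 and 8.34 in RPF1 Tet- cells, against 9.35, 9.42 and 9.24 in RPF1 Tet+ cells (log2 change -1.22, SE 0.10, limma adjusted p = 1.58e-05). NRG4 changed by -2.24, but only 1 of 3 RPF1 Tet- arrays detected it, and the size of its fall is set partly by background. Mock cells resembled RPF1 Tet+ cells in these ligands, with BDNF at 10.88 in Mock Tet- and 10.82 in Mock Tet+ on average and PDGFD at 9.36 in Mock Tet- and 9.32 in Mock Tet+.

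Protein tyrosine phosphatases, which remove the phosphate that these receptors add, had 17.9% of members called, against 13.4% of all features. These few calls give the family no direction. Of 28 tested, 1 rose, 4 fell and 23 were not called (1 higher and 2 lower in the chip-blocked fit and 2 lower within the second chip). PTPN13, a large phosphatase with PDZ domains, fell (log2 change -0.999, SE 0.09, limma adjusted p = 3.35e-05), and so did PTPRM, a receptor phosphatase that joins cells to one another (log2 change -0.59). PTPRR, a neuronal receptor phosphatase, changed by -1.23, a call lost in the chip-blocked fit (adjusted p = 0.0824) and within the second chip (adjusted p = 0.121).

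**Figure D2:**
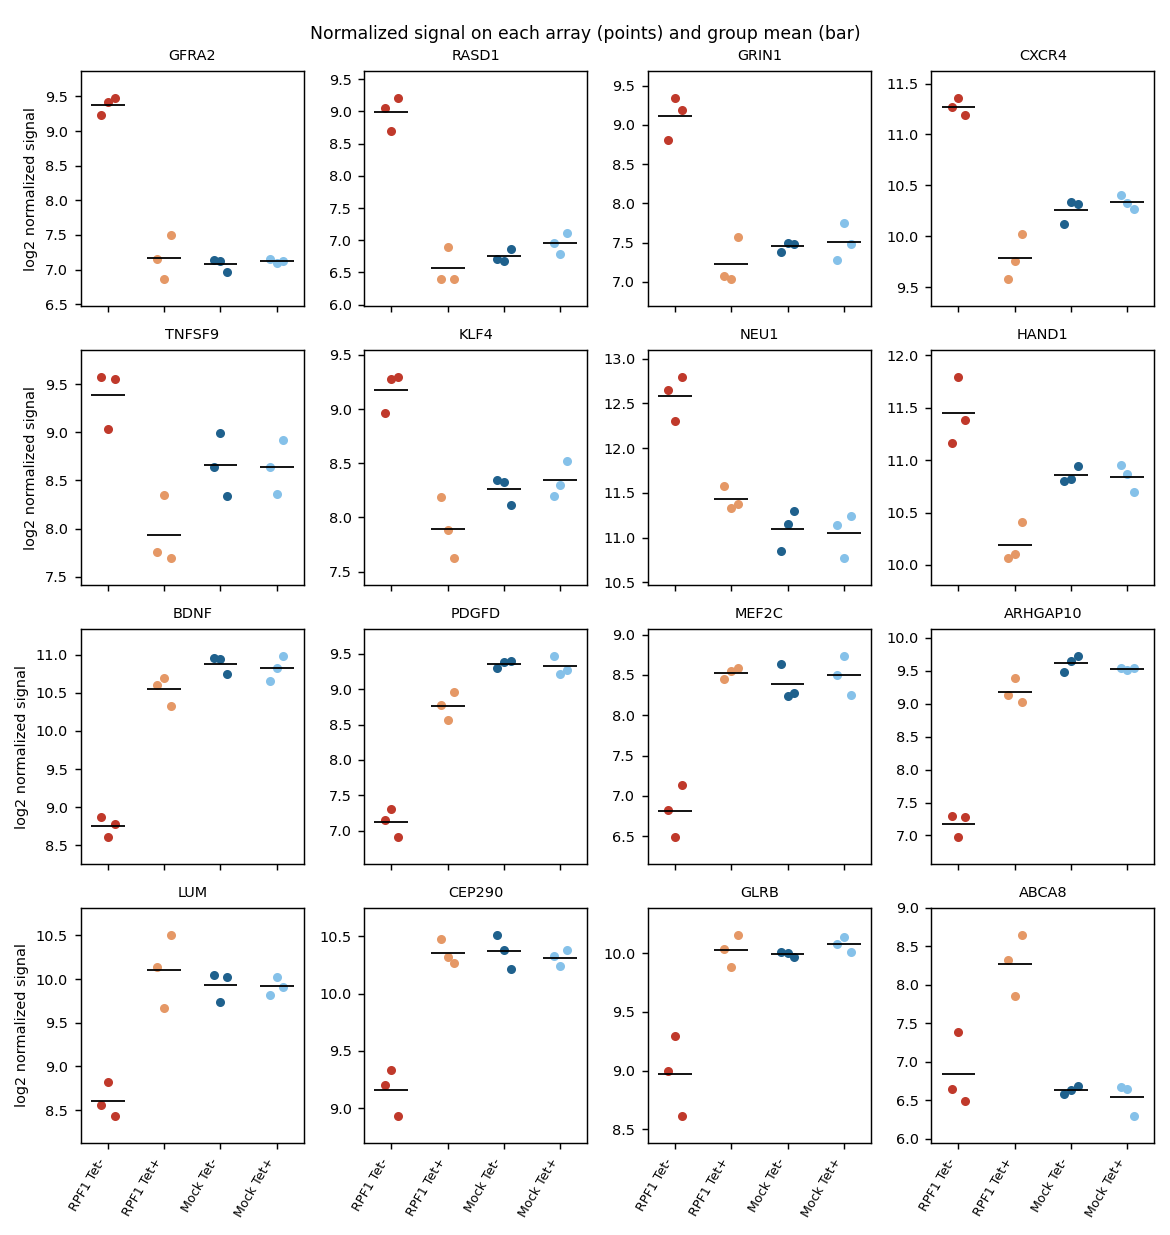
Log2 normalized signal of 16 named genes on each array, with points for arrays and bars for group means, in RPF1 Tet-, RPF1 Tet+, Mock Tet- and Mock Tet+ cells (3 arrays each). In the upper 8 panels the RPF1 Tet- points lie above all RPF1 Tet+ points, and in the lower 8 they lie below them. This was fixed in advance by naming only genes without overlap between the groups. The 2 Mock groups sit close together in each panel, and ABCA8 was highest in RPF1 Tet+ cells.

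Receptors coupled to G proteins moved both ways, and small GTPases and their regulators held some of the largest changes past the 12 leading genes. Of 86 G protein-coupled receptors, 8 rose, 9 fell and 69 were not called (2 higher and 4 lower in the chip-blocked fit, 3 higher and 3 lower within the second chip, 10 without RPF1 Tet- 3 and 11 without RPF1 Tet+ 2). CXCR4, the receptor of the chemokine CXCL12, had 11.27, 11.36 and 11.19 in RPF1 Tet- cells, against 9.58, 9.76 and 10.02 in RPF1 Tet+ cells. CXCR4 thus rose (log2 change 1.49, SE 0.11, limma adjusted p = 8.15e-06), and a second probe of the gene changed by 1.64. ADGRG6, an adhesion receptor needed for myelin in peripheral nerve, was lower (log2 change -1.26). GALR2, a galanin receptor, rose by 1.49 without keeping its call in the chip-blocked fit (adjusted p = 0.0502), and the adhesion receptor ADGRF5 rose by 1.61 without keeping it within the second chip (adjusted p = 0.0772), a size that rests partly on background since 1 of 3 RPF1 Tet+ arrays detected it.

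Downstream of these receptors, 71 G protein subunits, RGS proteins, adenylate cyclases and phosphodiesterases were tested, of which 3 rose, 6 fell and 62 were not called (1 higher and 2 lower in the chip-blocked fit and 2 lower within the second chip). PDE5A, which breaks down cyclic GMP, was at 9.22, 9.62 and 9.37 in RPF1 Tet- cells, against 10.74, 10.58 and 10.84 in RPF1 Tet+ cells, a fall (log2 change -1.32, SE 0.11, limma adjusted p = 1.74e-05). The calcium and calmodulin dependent kinase CAMK2D also fell (log2 change -1.12, and -0.57 at a second probe). PDE3B, a phosphodiesterase of cyclic AMP, changed by -0.82, a call lost in the chip-blocked fit (adjusted p = 0.0554). RGS16, which speeds GTP hydrolysis by G alpha subunits, rose by 0.90, lost within the second chip (adjusted p = 0.0547).

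Among 86 RAS and RAB GTPases 10 rose, 4 fell and 72 were not called (2 higher in the chip-blocked fit, 2 higher within the second chip and 9 without RPF1 Tet+ 1). RASD1, a RAS-like protein first found as a dexamethasone-induced gene, was at 9.05, 8.70 and 9.21 in RPF1 Tet- cells, against 6.39, 6.89 and 6.40 in RPF1 Tet+ cells (log2 change 2.43, SE 0.16, limma adjusted p = 3.25e-06). Its Mock means were 6.75 in Mock Tet- and 6.95 in Mock Tet+, near the RPF1 Tet+ level. ARHGAP10, a GTPase-activating protein, was at 7.29, 6.97 and 7.27 in RPF1 Tet- cells, against 9.13, 9.38 and 9.02 in RPF1 Tet+ cells. This was a fall (log2 change -2.001, SE 0.12, limma adjusted p = 1.03e-06). ARC, an activity-regulated gene of neurons that controls glutamate receptors at the synapse, was at 8.72, 7.93 and 8.93 in RPF1 Tet- cells, against 5.82, 6.38 and 5.80 in RPF1 Tet+ cells (log2 change 2.53, SE 0.23, limma adjusted p = 3.9e-05), and since it was detected on 1 of 3 RPF1 Tet+ arrays its fold depends on values near background.

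Genes of cytokine signalling changed in small numbers and in both directions. Of 54 interleukins, cytokine receptors and JAK, STAT and SOCS genes, 4 rose, 6 fell and 44 were not called (3 lower in the chip-blocked fit, 2 lower within the second chip, 3 without RPF1 Tet- 3, 4 without RPF1 Tet+ 1 and 6 without RPF1 Tet+ 2 or RPF1 Tet+ 3). IL18R1, a chain of the interleukin 18 receptor, was at 7.84, 8.03 and 7.997 in RPF1 Tet- cells, against 8.71, 8.82 and 9.14 in RPF1 Tet+ cells, a fall (log2 change -0.93, SE 0.14, limma adjusted p = 0.00101). The TNF and NF-kappaB group was called at about the share of all features (13.6%), mostly higher. Of 44 genes, 5 rose, 1 fell and 38 were not called (2 higher in the chip-blocked fit, 3 higher within the second chip, 2 without RPF1 Tet- 3, 3 without RPF1 Tet+ 1 and 10 without RPF1 Tet- 2). TNFSF9, the ligand of the T cell costimulator 4-1BB, was at 9.57, 9.03 and 9.55 in RPF1 Tet- cells, against 7.75, 8.34 and 7.69 in RPF1 Tet+ cells (log2 change 1.46, SE 0.23, limma adjusted p = 0.00154); Mock cells lay between, at 8.66 in Mock Tet- and 8.64 in Mock Tet+. Of 25 chemokine and complement genes, 3 rose, 0 fell by limma, with 3 lower at an unadjusted p under 0.05, and 22 were not called (1 higher in the chip-blocked fit and 0 by limma within the second chip where 5 had an unadjusted p under 0.05). CCL2, an attractant of monocytes, rose by 1.15 and CX3CL1 by 0.88. On the second chip alone neither was called (adjusted p = 0.0568 and 0.257), and the call of CX3CL1 was also lost in the chip-blocked fit (adjusted p = 0.183) and with only the 6 RPF1 arrays (adjusted p = 0.0586).

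Among ion channels, subunits of 2 ligand-gated receptors moved in opposite directions. GRIN1, the obligate subunit of NMDA glutamate receptors, had 8.81, 9.35 and 9.19 in RPF1 Tet- cells, against 7.08, 7.03 and 7.58 in RPF1 Tet+ cells. Its level rose (log2 change 1.88, SE 0.17, limma adjusted p = 3.84e-05). GLRB, the beta subunit of glycine receptors, moved the other way, at 8.998, 9.30 and 8.61 in RPF1 Tet- cells, against 10.04, 9.88 and 10.16 in RPF1 Tet+ cells (log2 change -1.06, SE 0.14, limma adjusted p = 0.000586). They were the called genes among 21 ligand-gated channels, of which 1 rose, 1 fell and 19 were not called (1 higher and 1 lower in the chip-blocked fit and 1 higher and 1 lower within the second chip). Of 31 sodium, calcium and TRP channel genes, 0 rose, 5 fell by limma, with 6 higher at an unadjusted p under 0.05, and 26 were not called (1 lower in the chip-blocked fit, 1 lower within the second chip, 1 without RPF1 Tet- 3, 2 without RPF1 Tet+ 3 or RPF1 Tet- 1 and 3 without RPF1 Tet+ 1). CACNA2D1, an auxiliary subunit of voltage-gated calcium channels, was at least 1.19-fold lower in RPF1 Tet- cells (limma adjusted p = 0.00114). KCNJ8, a pore subunit of potassium channels gated by ATP, belongs to a separate list of potassium channels, in which calls went both ways. It changed by -0.69.

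Of 27 ABC transporters, 0 rose, 2 fell by limma, with 1 higher at an unadjusted p under 0.05, and 25 were not called (2 lower in the chip-blocked fit, 2 lower within the second chip and 4 without RPF1 Tet- 1). ABCA8, a lipid transporter, was at 6.65, 7.39 and 6.49 in RPF1 Tet- cells, against 8.33, 7.85 and 8.65 in RPF1 Tet+ cells (log2 change -1.43, SE 0.23, limma adjusted p = 0.00207). In Mock cells it averaged 6.63 in Mock Tet- and 6.54 in Mock Tet+, so the RPF1 Tet+ cells stood above all other groups. ABCB1, the multidrug efflux pump P-glycoprotein, was at 8.46, 7.83 and 8.20 in RPF1 Tet- cells, against 9.31, 9.22 and 9.01 in RPF1 Tet+ cells, and its change was -1.02. Among 230 solute carriers 12 rose, 13 fell and 205 were not called (3 higher and 3 lower in the chip-blocked fit, 3 higher and 2 lower within the second chip and 16 without RPF1 Tet+ 2). SLC30A3, which loads zinc into synaptic vesicles, rose (log2 change 1.33, SE 0.09, limma adjusted p = 3.24e-06).

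Transcription factors of the T-box and GATA type were among the lists with the highest shares of calls. Of 51 T-box, GATA, ZIC, SNAI and TEAD factors and their partners, 8 rose, 7 fell and 36 were not called (2 higher and 1 lower in the chip-blocked fit and 3 higher and 1 lower within the second chip). The list is wider than its name, since it also counts MEF2C, a MADS box factor given below, and it does not hold every partner. ZFPM2, a zinc finger partner of GATA factors needed in heart and gonad, is not counted in this list. It was at 7.20, 7.07 and 7.02 in RPF1 Tet- cells, against 9.19, 8.91 and 8.94 in RPF1 Tet+ cells. ZFPM2 was thus lower in RPF1 Tet- cells (log2 change -1.91, SE 0.13, limma adjusted p = 3.1e-06). SNAI1, the repressor of E-cadherin, was at 8.72, 8.84 and 8.99 in RPF1 Tet- cells, against 7.60, 7.83 and 7.72 in RPF1 Tet+ cells, a rise (log2 change 1.13, SE 0.09, limma adjusted p = 1.11e-05). TFAP2C, an AP-2 factor of trophoblast and germ cells, rose by 0.84. GATA2 changed by 1.07, a call lost in the chip-blocked fit (adjusted p = 0.0528) and within the second chip (adjusted p = 0.0569).

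Of 39 ID and bHLH factors, 5 rose, 4 fell and 30 were not called (2 higher in the chip-blocked fit, 2 higher within the second chip, 4 without RPF1 Tet+ 1 or RPF1 Tet+ 2 and 5 without RPF1 Tet- 3). HAND1, a bHLH factor of heart and trophoblast, was at 11.16, 11.80 and 11.39 in RPF1 Tet- cells, against 10.06, 10.10 and 10.41 in RPF1 Tet+ cells (log2 change 1.26, SE 0.15, limma adjusted p = 0.000263). ID3, which blocks bHLH factors by binding them, rose by 0.84, and ID1 by 0.61, though ID1 did not keep its call in the chip-blocked fit (adjusted p = 0.125) or within the second chip (adjusted p = 0.12). MEF2C, a MADS box factor of muscle, neurons and endothelium, is not one of these 39 and was counted with the T-box and GATA type factors. It was at 6.82, 6.49 and 7.14 in RPF1 Tet- cells, against 8.44, 8.55 and 8.59 in RPF1 Tet+ cells (log2 change -1.71, SE 0.17, limma adjusted p = 7.41e-05).

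All calls in the KLF, SP and EGR family were rises. Of its 22 members, 4 rose, 0 fell by limma, with 0 lower at an unadjusted p under 0.05, and 18 were not called (1 higher in the chip-blocked fit, 0 by limma within the second chip where 5 had an unadjusted p under 0.05 and 2 without RPF1 Tet- 3). KLF4, one of the factors used to reprogramme cells to pluripotency, was at 8.97, 9.27 and 9.30 in RPF1 Tet- cells, against 8.19, 7.88 and 7.62 in RPF1 Tet+ cells (log2 change 1.28), a call lost within the second chip (adjusted p = 0.0501). KLF2, a factor of quiescent endothelium and T cells, changed by 0.50, not called in the chip-blocked fit (adjusted p = 0.078) or within the second chip (adjusted p = 0.121). Outside this family, ZFP36, which binds AU-rich elements and destabilizes cytokine mRNAs, rose by 0.92.

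The largest list, numbered zinc finger proteins, many of which are KRAB repressors of transposable elements, had a low share of calls, with more rises than falls. Of 423 tested, 29 rose, 10 fell and 384 were not called (5 higher and 4 lower in the chip-blocked fit, 3 higher and 2 lower within the second chip, 22 without RPF1 Tet+ 1 and 25 without RPF1 Tet- 3). Its median log2 change was 0.07, against -0.01 over all features. ZNF114 was at least 1.80-fold higher in RPF1 Tet- cells (limma adjusted p = 2.77e-05), and ZNF488, a partner of oligodendrocyte factors, rose by 0.82.

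Chromatin remodelling genes were called at about the background share, and most of those called fell. Of 48 tested, 2 rose, 4 fell and 42 were not called (1 higher and 3 lower in the chip-blocked fit and 1 higher and 3 lower within the second chip). BAZ2B, a bromodomain subunit of ISWI complexes, was at 9.22, 9.46 and 9.26 in RPF1 Tet- cells, against 10.56, 10.18 and 10.62 in RPF1 Tet+ cells (log2 change -1.14, SE 0.12, limma adjusted p = 8.93e-05). ARID5B, a DNA-binding partner of a histone demethylase, fell by 1.02 and the helicase CHD9 by 0.83 on the log2 scale. CHD5, a helicase known mainly from neurons and testis, was at least 1.22-fold higher in RPF1 Tet- cells (limma adjusted p = 0.000196). Of 75 enzymes that write or erase histone marks, 8 rose, 4 fell and 63 were not called (0 by limma in the chip-blocked fit where 14 had an unadjusted p under 0.05, 0 by limma within the second chip where 10 had an unadjusted p under 0.05, 5 without RPF1 Tet+ 1, 6 without RPF1 Tet+ 2 and 7 without RPF1 Tet- 3). Imprinted genes, expressed from 1 parental copy, numbered 17, of which 3 rose, 2 fell and 12 were not called (0 by limma in the chip-blocked fit where 5 had an unadjusted p under 0.05, 1 higher within the second chip, 2 without Mock Tet+ 2, Mock Tet- 2, RPF1 Tet+ 1, RPF1 Tet- 1 or RPF1 Tet- 3 and 3 without Mock Tet+ 1, Mock Tet+ 3 or RPF1 Tet+ 3). IGF2 rose by 1.32, a call lost in the chip-blocked fit (adjusted p = 0.055), and only 1 of 3 RPF1 Tet+ arrays detected it.

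Adhesion genes held some of the highest shares of calls, with falls in the integrins and in the immunoglobulin and leucine-rich proteins. Of 19 integrins, 0 rose, 4 fell by limma, with 0 higher at an unadjusted p under 0.05, and 15 were not called (1 lower in the chip-blocked fit and 0 by limma within the second chip where 4 had an unadjusted p under 0.05). ITGA1, a collagen receptor subunit, changed by -0.56, a call lost within the second chip (adjusted p = 0.0593), and ITGAV, a subunit of vitronectin receptors, by -0.71, lost there (adjusted p = 0.0538) and in the chip-blocked fit (adjusted p = 0.0794). Of 47 immunoglobulin and leucine-rich adhesion proteins, 4 rose, 9 fell and 34 were not called (1 higher and 2 lower in the chip-blocked fit, 1 higher and 2 lower within the second chip and 8 without RPF1 Tet- 3). NECTIN4, an epithelial nectin, was at least 2.22-fold higher in RPF1 Tet- cells (limma adjusted p = 0.000344), with levels of 7.24, 7.01 and 7.56 in RPF1 Tet- cells, against 5.61, 5.46 and 5.97 in RPF1 Tet+ cells. ADGRL2, a latrophilin that joins synaptic partners, fell by 1.02 on the log2 scale. FLRT3, which binds latrophilins, changed by -1.50, a call lost in the chip-blocked fit (adjusted p = 0.0502) and within the second chip (adjusted p = 0.106).

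Keratins, desmosomal proteins and other intermediate filaments had the highest share of rises of any list in the plot. With chip taken into account, more of the called members fell than rose. Of 34, 7 rose, 3 fell and 24 were not called (1 higher and 2 lower in the chip-blocked fit and 1 higher and 2 lower within the second chip). KRT19, a keratin of simple epithelia, was at 12.15, 12.40 and 12.46 in RPF1 Tet- cells, against 11.64, 11.45 and 11.68 in RPF1 Tet+ cells (log2 change 0.75), and JUP, the desmosomal plakoglobin, changed by 0.75 at the probe used and by 0.11 at its other probe. KRT19 is also one of the keratinocyte markers whose sum is given at the end. Neither call was kept in the chip-blocked fit (adjusted p = 0.129 and 0.0706) or within the second chip (0.125 and 0.114). KRT27, a hair root keratin, was at least 1.33-fold higher. On the other side VIM, the mesenchymal filament vimentin, was at 14.25, 14.44 and 14.43 in RPF1 Tet- cells, against 14.93, 14.90 and 15.14 in RPF1 Tet+ cells (log2 change -0.62, SE 0.09, limma adjusted p = 0.000816), and KRT222 fell by 0.74 on the log2 scale.

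Of 34 proteoglycans and heparan sulfate enzymes, 3 rose, 4 fell and 27 were not called (2 lower in the chip-blocked fit, 2 lower within the second chip, 2 without RPF1 Tet- 3 and 4 without Mock Tet- 3 or RPF1 Tet+ 1). LUM, the collagen-binding proteoglycan lumican, was at 8.56, 8.82 and 8.43 in RPF1 Tet- cells, against 10.14, 9.67 and 10.51 in RPF1 Tet+ cells (log2 change -1.50, SE 0.18, limma adjusted p = 0.000296). EXTL2, an enzyme of heparan sulfate chain synthesis, was at 9.63, 9.88 and 9.29 in RPF1 Tet- cells, against 10.70, 10.62 and 10.96 in RPF1 Tet+ cells, a fall (log2 change -1.16, SE 0.14, limma adjusted p = 0.000337). Among 68 glycosyltransferases 4 rose, 6 fell and 58 were not called (2 higher and 1 lower in the chip-blocked fit, 3 higher within the second chip and 6 without RPF1 Tet+ 1 or RPF1 Tet- 3). ST3GAL1, which caps O-glycans with sialic acid, rose by 1.55, though it was detected on 1 of 3 RPF1 Tet+ arrays. ST6GALNAC1, another sialyltransferase of O-glycans, was at least 1.15-fold higher, while ST6GAL1, described above for its promoter, was lower.

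Genes of the primary cilium, the antenna on which cells read Hedgehog and other signals, were called at about the share of all features (12.9%, against 13.4%), and 9 of the 12 called were lower. Of 93 tested, 3 rose, 9 fell and 81 were not called (3 lower in the chip-blocked fit and 2 lower within the second chip). CEP290, a scaffold of the ciliary gate whose loss causes retinal and kidney disease, was at 9.20, 9.33 and 8.93 in RPF1 Tet- cells, against 10.47, 10.32 and 10.27 in RPF1 Tet+ cells. It fell (log2 change -1.20, SE 0.11, limma adjusted p = 4.95e-05). IFT57, of the intraflagellar transport machine, was at 8.60, 8.55 and 8.46 in RPF1 Tet- cells, against 9.52, 9.63 and 9.57 in RPF1 Tet+ cells (log2 change -1.04, SE 0.09, limma adjusted p = 3.52e-05). TCTN1, of the same gate, changed by -0.68, a call lost within the second chip (adjusted p = 0.056). In the Hedgehog pathway itself, of 13 genes 0 rose, 1 fell by limma, with 0 higher at an unadjusted p under 0.05, and 12 were not called (0 by limma in the chip-blocked fit where 2 had an unadjusted p under 0.05 and 0 by limma within the second chip where 3 had an unadjusted p under 0.05).

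Secretory granule genes of neuroendocrine cells, counted without NPPB, VGF and NPTX2, split evenly. Of 22, 3 rose, 3 fell and 16 were not called (2 higher and 2 lower in the chip-blocked fit and 2 higher and 2 lower within the second chip). SCG5, the chaperone of prohormone convertase 2, was at 7.37, 7.66 and 7.56 in RPF1 Tet- cells, against 6.41, 6.29 and 6.35 in RPF1 Tet+ cells (log2 change 1.18, SE 0.13, limma adjusted p = 0.00015). PAM, the enzyme that amidates peptide hormones, was at 10.89, 10.71 and 10.87 in RPF1 Tet- cells, against 11.74, 11.66 and 11.79 in RPF1 Tet+ cells, a fall (log2 change -0.91, SE 0.10, limma adjusted p = 0.000177). The neuropeptide NTS, neurotensin, changed by -2.18, with detection on 1 of 3 RPF1 Tet- arrays. OLFM1, a secreted olfactomedin of neurons, belongs to no list but is among the 24 largest rises, at 11.001, 10.98 and 11.16 in RPF1 Tet- cells, against 8.60, 8.62 and 8.66 in RPF1 Tet+ cells (log2 change 2.42, SE 0.11, limma adjusted p = 1.66e-07). A second probe changed by 2.23, and the Mock means of 9.74 in Mock Tet- and 9.72 in Mock Tet+ lay above RPF1 Tet+ and below RPF1 Tet-.

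Of 41 lysosomal genes, 4 rose, 1 fell and 36 were not called (2 higher in the chip-blocked fit and 2 higher within the second chip). NEU1, the lysosomal sialidase, was at 12.65, 12.30 and 12.80 in RPF1 Tet- cells, against 11.58, 11.33 and 11.38 in RPF1 Tet+ cells (log2 change 1.15, SE 0.16, limma adjusted p = 0.00081). CTSV, a cathepsin that resembles cathepsin L, rose by 1.002. HEXA and CTSB, a hexosaminidase and a cathepsin, changed by -0.61 and 0.50, and neither was called in the chip-blocked fit (adjusted p = 0.223 and 0.226) or within the second chip (0.287 and 0.228). Of 34 autophagy genes, 2 rose, 3 fell and 29 were not called (1 lower in the chip-blocked fit, 1 lower within the second chip, 1 without RPF1 Tet+ 1 and 3 without RPF1 Tet+ 2); the protease ATG4C fell by 0.70 on the log2 scale. Among 112 F-box, KLHL and TRIM proteins, substrate receptors of ubiquitin ligases, 10 rose, 9 fell and 93 were not called (2 higher and 5 lower in the chip-blocked fit, 2 higher and 4 lower within the second chip, 10 without RPF1 Tet- 3 and 12 without RPF1 Tet- 1). FBXO32, the atrophy ligase of muscle, rose by 0.87 (0.42 at a second probe) and TRIM55, a protein of the sarcomere, by 0.997, while TRIM10 fell by 0.82 on the log2 scale. MYOM2, an M-band protein of muscle, was at least 2.34-fold higher.

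Metabolic lists moved in small parts. Of 18 enzymes of serine, glycine and one-carbon metabolism, 1 rose, 4 fell and 13 were not called (1 higher and 1 lower in the chip-blocked fit, 1 lower within the second chip, 2 without RPF1 Tet- 3 and 3 without RPF1 Tet+ 1 or RPF1 Tet+ 3). AHCY, which clears S-adenosylhomocysteine, was among the brightest probes at 14.18, 14.56 and 14.27 in RPF1 Tet- cells, against 14.87, 14.81 and 14.96 in RPF1 Tet+ cells, a fall (log2 change -0.54, SE 0.09, limma adjusted p = 0.00315). GLDC, of the glycine cleavage system, rose by 0.70, lost within the second chip (adjusted p = 0.0578). Of 21 genes that handle or answer to retinoids, 4 rose, 2 fell and 15 were not called (1 lower in the chip-blocked fit and 0 by limma within the second chip where 6 had an unadjusted p under 0.05). CRABP2, which carries retinoic acid to its receptors, rose by 1.12 without keeping its call in the chip-blocked fit (adjusted p = 0.125) or within the second chip (0.181). DHRS4L2 is not among these 21 and was counted with the aldehyde dehydrogenases and aldo-keto reductases. It fell by 0.82 on the log2 scale, but it is a near copy of DHRS4, and the probe may read both.

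Of 34 cytochromes P450, sulfotransferases and UGTs, 5 rose, 3 fell and 26 were not called (0 by limma in the chip-blocked fit where 12 had an unadjusted p under 0.05, 0 by limma within the second chip where 11 had an unadjusted p under 0.05 and 4 without RPF1 Tet+ 1). CYP27B1, which makes active vitamin D, rose by 1.09, a call lost in the chip-blocked fit (adjusted p = 0.0592) and within the second chip (0.119). Of 29 hypoxia response genes, 3 rose, 1 fell and 25 were not called (2 higher in the chip-blocked fit, 0 by limma within the second chip where 5 had an unadjusted p under 0.05 and 8 without RPF1 Tet+ 3). EPAS1, the factor HIF-2 alpha, rose by 1.32 and NDRG1, a classical hypoxia target, by 0.66. Both calls were lost within the second chip (adjusted p = 0.0882 and 0.0792).

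Core machinery showed few calls. In each of the 7 lists that follow, limma called 0 members in the chip-blocked fit and 0 within the second chip, where 0 to 4 and 0 to 6 members had an unadjusted p under 0.05. Of 38 proteasome subunits, 0 rose, 0 fell by limma, with 2 higher and 3 lower at an unadjusted p under 0.05, and 38 were not called. Of 61 cytosolic ribosomal proteins, 0 rose, 3 fell by limma, with 3 higher at an unadjusted p under 0.05, and 58 were not called (0 without RPF1 Tet+ 1 and 1 without Mock Tet+ 3, Mock Tet- 2, RPF1 Tet+ 2, RPF1 Tet+ 3, RPF1 Tet- 2 or RPF1 Tet- 3). Among 42 nuclear pore proteins and importins 1 rose, 0 fell by limma, with 4 lower at an unadjusted p under 0.05, and 41 were not called (2 without RPF1 Tet+ 3, RPF1 Tet- 1 or RPF1 Tet- 2). Of 31 ribosome biogenesis genes, 0 rose, 1 fell by limma, with 1 higher at an unadjusted p under 0.05, and 30 were not called (2 without RPF1 Tet- 1). Of 27 glycolytic genes, 0 rose, 1 fell by limma, with 3 higher at an unadjusted p under 0.05, and 26 were not called (0 without Mock Tet+ 1, Mock Tet+ 3, Mock Tet- 1, Mock Tet- 2, RPF1 Tet+ 1, RPF1 Tet+ 2, RPF1 Tet- 1 or RPF1 Tet- 3, 2 without Mock Tet+ 2 or RPF1 Tet+ 3 and 4 without RPF1 Tet- 2). Without RPF1 Tet+ 3 both glycolytic calls were higher, so no direction holds for that list. In the citric acid cycle, 26 genes were tested, of which 0 rose, 2 fell by limma, with 2 higher at an unadjusted p under 0.05, and 24 were not called (1 without RPF1 Tet- 3). Among 38 subunits of respiratory complexes III to V 1 rose, 1 fell and 36 were not called (0 without Mock Tet+ 1, Mock Tet+ 3, Mock Tet- 2, RPF1 Tet+ 2 or RPF1 Tet- 2 and 1 without Mock Tet+ 2, Mock Tet- 1, RPF1 Tet+ 1, RPF1 Tet+ 3 or RPF1 Tet- 3). All these shares lay under the 13.4% of all features. The medians of these lists lay between -0.03 and 0.06, against -0.01 over all features.

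The Mock line was grown with and without Tet in the absence of the RPF-1 construct. Its contrast also runs across chips. Mock Tet+ 1 and Mock Tet+ 2 sat on the first chip, and Mock Tet+ 3 and all Mock Tet- arrays on the second. The Mock change thus holds any shift between these chips beside the effect of removing Tet. In the fits that account for chip, Mock Tet+ 3 alone stands for its group. The difference of the Tet effects, the RPF1 change minus the Mock change, was called for 679 of 13228 features (5.13%), 344 higher (2.6%) and 335 lower (2.53%). This contrast shares the RPF1 arrays with the one above. It was called for 98 in the chip-blocked fit and for 75 within the second chip. The count was 417 without RPF1 Tet- 3, 420 without RPF1 Tet+ 1 and 423 without Mock Tet- 3. Of the 294 genes that the naming rule picks, 168 were called in the difference. Over all 294, the RPF1 changes had a median size of 0.71. The Mock changes of the same 294 had a median size of 0.06 and ran from -0.42 to 0.53. These genes were picked by their RPF1 change, so a larger size in the RPF1 line was built in. A high share called in the difference was favoured in the same way. Among the 168 were GFRA2, with a Mock change of -0.05, and ARHGAP10, with 0.09.

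**Figure D3:**
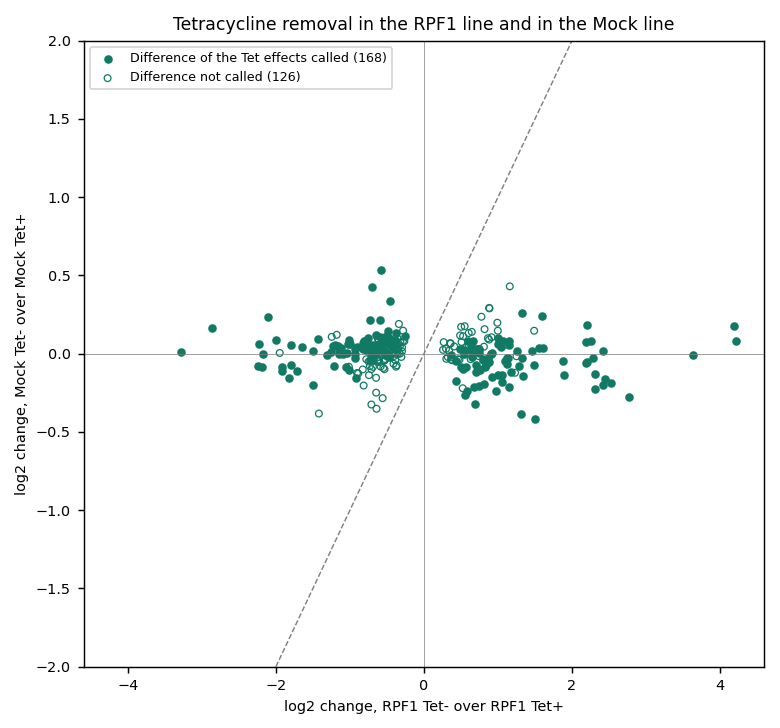
Log2 change on Tet removal in the Mock line (y axis) against that in the RPF1 line (x axis) for the 294 named genes, which were chosen by their RPF1 change. Filled points are the 168 whose difference of the Tet effects was called, and the dashed line marks equal change. All Mock changes lie between -0.42 and 0.53.

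The chip of an array can shift its values, and 2 of 3 RPF1 Tet- arrays had a chip to themselves. Of the 294 named genes 112 kept their call in the chip-blocked fit, 98 within the second chip and 92 in both, and 0 reversed. That 0 reversed was fixed by the naming rule and is no check. The rule takes only genes without overlap between the groups, and both fits set RPF1 Tet- 1 alone against the RPF1 Tet+ arrays. The change with the block was between 0.422 and 1.66 times that without it, with a median of 0.974 and 3 genes under 0.5. The log2 change of MEF2C was -1.70 with and -1.71 without the block, and that of GRIN1 1.58 with and 1.88 without it. That of the chloride channel gene CLIC5 was 0.44 with and 0.88 without it, and its call was lost in both fits. CLIC5 was detected on no RPF1 Tet+ array, so without the block it is given as at least 1.33-fold higher in RPF1 Tet- cells. Whichever 1 of the 12 arrays was left out, 200 of the 294 stayed called.

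**Figure D4:**
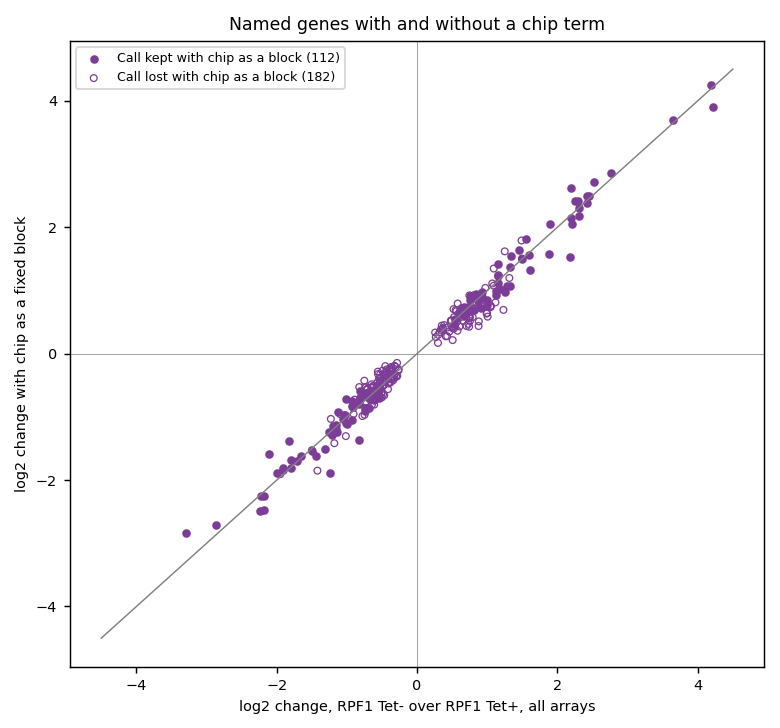
Log2 change of the 294 named genes in the chip-blocked fit (y axis) against that of all arrays without it (x axis). Filled points are the 112 that kept their call with the block, open points the 182 that lost it, and the line marks equality. All points lie at the lower left or upper right, with the same sign on both axes. This was fixed in advance by naming only genes without overlap between the groups.

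Markers of other cell types were read as a check on the cultures. Of 12 blood markers 4 could be tested, of which 3 rose, 0 fell by limma, with 0 lower at an unadjusted p under 0.05, and 1 was not called (2 higher in the chip-blocked fit and 2 higher within the second chip). Their summed level lay at 10.95 to 11.21 in RPF1 Tet- cells and 10.12 to 10.36 in RPF1 Tet+ cells on the log2 scale; CD14, CD3E, HBB and CD34 were detected on 0 of 12 arrays. Of 12 keratinocyte and carcinoma line markers 6 could be tested, of which 2 rose, 1 fell and 3 were not called (1 higher in the chip-blocked fit and 1 higher within the second chip), with sums of 12.46 to 12.72 in RPF1 Tet- cells and 11.96 to 12.07 in RPF1 Tet+ cells. Of 10 endothelial markers 4 could be tested, of which 0 rose, 2 fell by limma, with 0 higher at an unadjusted p under 0.05, and 2 were not called (0 by limma in the chip-blocked fit where 2 had an unadjusted p under 0.05, 0 by limma within the second chip where 2 had an unadjusted p under 0.05 and 1 without Mock Tet+ 1, Mock Tet+ 2, Mock Tet+ 3, Mock Tet- 1, Mock Tet- 2, RPF1 Tet+ 1, RPF1 Tet+ 3, RPF1 Tet- 1 or RPF1 Tet- 3). Their sums were 9.69 to 9.87 in RPF1 Tet- cells and 10.09 to 10.37 in RPF1 Tet+ cells. Of 8 hepatocyte markers 2 could be tested and 0 were called by limma, with sums of 7.72 to 8.15 in RPF1 Tet- cells and 7.76 to 8.01 in RPF1 Tet+ cells. The part of these shifts in the results above was not tested.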

How the data were processed

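Total RNA of HEK293 cells from 4 groups of 3 was read on 12 Illumina bead arrays. Signals came from BeadStudio, per the submitters' processing notes, version not given in the sources used here. Deposited per probe and array are unnormalized intensity values and, per the file headers, a detection p-value. A second deposited table holds the authors' intensity values on the linear scale, which differed by a median of 0.00626% from a quantile normalization of the raw signals.

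Background was corrected with limma 3.58.1 in R 4.3.3 (normexp from the detection p-values, offset 16), followed by quantile normalization and log2. A probe was kept if 3 or more arrays had its detection p under 0.05, which held for 14752 of 22184, with the brightest probe for each symbol. Of all probes 19715 carried 1 symbol, 2469 none and 0 several. This gave 13228 features, 11824 with a symbol. The limma fit had 1 mean for each group over all 12 arrays, and Benjamini-Hochberg adjusted p-values run over all features, called under 0.05. The self-test on simulated data used the same fit.

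Named genes are, for each list, the called members with the largest change and no overlap between the groups, at most 4, those ranked 13 to 24 by change in each direction, and 6 leading genes. The members and lists were chosen with earlier results of these data known. Alternatives were no background correction, an offset of 50, median scaling, the authors' table, other detection filters, all probes, an intensity trend, array weights, chip or replicate number as a block, the second chip alone, only the RPF1 arrays, and each array left out in turn. No pairing of arrays by replicate number was visible in the values. Probe positions were not used, and coordinates are those of RefSeq promoters. Of the 74 functional lists, 1 is not reported here on its own.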

Additional observations from a re-analysis of the deposited data

Results flagged for a closer look

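The effect of Tet removal differed between the RPF1 and the Mock line for 679 features and for 168 of the 294 named genes, by the limma test of the difference itself, and for 98 features in the chip-blocked fit and 75 within the second chip. Groups of 3 arrays are too small for a search for outlying arrays, and none was made.

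For 11 of these genes the Mock arrays moved opposite to the RPF1 arrays with no overlap between Mock Tet- and Mock Tet+. They were taken from genes called in the difference, a choice that favours an opposite Mock change. The share of all features with such a pattern was not counted, so the 11 are a description. Mock Tet+ 1 and Mock Tet+ 2 also sat on another chip than the Mock Tet- arrays. Of the 11, only ZNF114 kept its RPF1 call in the chip-blocked fit and within the second chip. IGF2 lost it in the chip-blocked fit, EIF1B within the second chip and the other 8 in both, and ATP2A3, NNAT, ATG7, ATIC and KDM3A also lost it without 4, 9, 2, 3 and 2 of the 12 arrays, each left out in turn. ITGB4, an integrin subunit of hemidesmosomes, changed by -0.70 in the RPF1 line and 0.43 in the Mock line, a difference of -1.12 (SE 0.19, limma adjusted p = 0.00614). Only 1 of 3 RPF1 Tet- arrays detected it, its RPF1 call was lost in the chip-blocked fit (adjusted p = 0.167) and within the second chip (0.172), and its second probe changed by 0.03. ATP2A3, a calcium pump, changed by -0.58 and 0.53, a difference of -1.11 (SE 0.21, limma adjusted p = 0.0102), with detection on 1 of 3 RPF1 Tet- arrays. IGF2 had fitted changes of 1.32 and -0.38, a difference of 1.70 (SE 0.26, limma adjusted p = 0.00357), but it was detected on 1 of 3 RPF1 Tet+, 0 of 3 Mock Tet- and 1 of 3 Mock Tet+ arrays, so its Mock change is one of values near background. ZNF114, detected on no RPF1 Tet+ or Mock array, had a fitted change of 1.34 in the RPF1 line and -0.15 in the Mock line, a difference of 1.48 (SE 0.17, limma adjusted p = 0.000432). The differences of the others were -0.79 for NNAT (detected on 1 of 3 RPF1 Tet- and 1 of 3 Mock Tet+ arrays), -0.50 for ATG7, -0.38 for ATIC, 0.58 for KLF2, 0.61 for PARD6G, 0.62 for EIF1B and 0.81 for KDM3A, with limma adjusted p from 0.0035 to 0.0452.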

How the results depend on the processing

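No named gene changed sign under any alternative run. With chip as a block or with fewer arrays this was fixed by naming only genes without overlap between the groups. Higher and lower calls were nearly equal in number, and which was the larger turned with the setting, with 46.7% to 52.5% of calls higher in RPF1 Tet- against RPF1 Tet+ and 45.5% to 55.3% in the difference. In lists with few calls the split turned too: the 7 higher and 3 lower intermediate filament genes became 1 and 2 with chip as a block. Calls in RPF1 Tet- against RPF1 Tet+ (1776) numbered 419 with chip as a fixed block, 363 on the second chip alone, 971 with only the 6 RPF1 arrays and 3239 with array weights, and 1132 to 1696 with 1 array left out. Those of the difference of the Tet effects (679) numbered 98 with chip as a fixed block, 75 on the second chip alone and 1493 with array weights, and 417 to 663 with 1 array left out. The second chip and the left-out arrays leave fewer arrays in the fit, and for the rest the cause was not tested. With replicate number as a block, 1381 and 427 were called. Same-numbered arrays of different groups deviated with correlations of -0.401 to 0.414, other pairs with -0.499 to 0.577. Of 12 arrays, 1 correlated best with its own number. No pairing by number was visible, but with 3 arrays a group these values cannot show whether same-numbered arrays were handled together. In every other alternative both counts stayed within 1.5 times. Of the 294 named genes, calls were lost by 182 in the chip-blocked fit, 196 within the second chip, 87 with only the 6 RPF1 arrays, 37 with the replicate block, 73 without RPF1 Tet+ 1, 69 without RPF1 Tet- 3, and at most 17 under another background correction, scaling, filter or probe rule. With detection required at a p under 0.01 on all 12 arrays, 220 of them could be tested and all kept their call. Chip and group cannot be told apart for 2 of 3 RPF1 Tet- arrays, nor for Mock Tet+ 1 and Mock Tet+ 2. Near background a fold is a bound or understates the change.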

Other observations

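A few further lists are given here as values. Of 24 serpins and cystatins, inhibitors of proteases, 3 rose, 0 fell by limma, with 3 lower at an unadjusted p under 0.05, and 21 were not called (2 higher in the chip-blocked fit and 2 higher within the second chip). SERPINE2, the protease nexin that blocks thrombin and plasminogen activators, was at 12.49, 12.16 and 12.34 in RPF1 Tet- cells, against 11.51, 11.76 and 11.48 in RPF1 Tet+ cells (log2 change 0.75, SE 0.11, limma adjusted p = 0.00103). CST1, a secreted cystatin, was at least 1.11-fold higher in RPF1 Tet- cells (limma adjusted p = 0.000853). Of 44 PDZ-LIM, LIM and septin proteins, 2 rose, 4 fell and 38 were not called (2 lower in the chip-blocked fit and 1 lower within the second chip). LIMCH1, a LIM domain protein of stress fibres, was at 8.86, 8.62 and 8.80 in RPF1 Tet- cells, against 9.80, 9.73 and 9.53 in RPF1 Tet+ cells (log2 change -0.93, SE 0.09, limma adjusted p = 8.03e-05).

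Of 30 Hippo pathway genes and YAP targets, 2 rose, 5 fell and 23 were not called (1 lower in the chip-blocked fit and 1 higher and 2 lower within the second chip). FAT4, a giant protocadherin, was at 6.03, 5.95 and 6.21 in RPF1 Tet- cells, against 7.17, 7.34 and 7.14 in RPF1 Tet+ cells (log2 change -1.15, SE 0.10, limma adjusted p = 3.02e-05), and AMOT, a binder of YAP at cell junctions, changed by -0.73, a call lost in the chip-blocked fit (adjusted p = 0.0908). Among 50 cyclins and cyclin-dependent kinases 5 rose, 2 fell and 43 were not called (1 higher in the chip-blocked fit, 1 higher within the second chip and 4 without RPF1 Tet+ 2). CCNA1, the cyclin A of germ cells, was at 11.39, 11.17 and 11.37 in RPF1 Tet- cells, against 10.73, 10.59 and 10.61 in RPF1 Tet+ cells (log2 change 0.67, SE 0.09, limma adjusted p = 0.00059). In Mock cells CCNA1 averaged 11.38 in Mock Tet- and 11.37 in Mock Tet+, so the RPF1 Tet+ cells stood below all other groups. Of 34 aminoacyl-tRNA synthetases, which charge tRNAs, 0 rose, 4 fell by limma, with 0 higher at an unadjusted p under 0.05, and 30 were not called (0 by limma in the chip-blocked fit where 2 had an unadjusted p under 0.05, 0 by limma within the second chip where 2 had an unadjusted p under 0.05, 1 without RPF1 Tet+ 1, RPF1 Tet+ 2 or RPF1 Tet- 3 and 2 without Mock Tet- 2, Mock Tet- 3 or RPF1 Tet- 2). MARS1, the methionine enzyme, changed by -0.47, a call lost in the chip-blocked fit (adjusted p = 0.109) and within the second chip (adjusted p = 0.125).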
